A study of Mus musculus with 8 samples.

Results

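The genes described here encode the machinery that carries proteins into mitochondria. They were taken by a rule on names alone: every row of the count table with a mouse symbol starting in Tomm or Timm, which gave 27 genes, and 10 partners listed one by one (Pam16, Dnajc19, Grpel1, Hspa9, Hspd1, Hspe1, Pmpca, Pmpcb, Samm50 and Mtx1). That made 37 of the 18395 genes in the table, by a rule that uses no expression value. The study sequenced 8 libraries of mouse adipose tissue: 4 are of controls (WT) and 4 of mice in which Kindlin-2 was deleted in brown adipocytes (KO). Kindlin-2, encoded by Fermt2, is an adaptor that binds integrins at focal adhesions. Both groups had been held at 4 °C for 6 hours, so cold is common to all libraries and its own effect is not measured. The series title speaks of brown adipose tissue and the sample labels of adipose tissue. The sources used here do not give the age of the mice, the driver of the deletion or whether the controls carry floxed alleles. They also do not say whether each library came from its own animal, and the p-values then cover only the spread of these samples, which may be technical.

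Nearly all mitochondrial proteins are made in the cytosol and imported. The TOM complex of the outer membrane is the common entry gate, and the SAM complex inserts barrel proteins there. Small TIM chaperones escort hydrophobic proteins across the intermembrane space to the TIM22 complex, which inserts carriers into the inner membrane. The TIM23 complex and its ATP-driven motor pull proteins with a presequence into the matrix, where the matrix processing peptidase (MPP) removes the presequence and the Hsp60-Hsp10 chaperonin folds the product. Brown adipocytes are packed with mitochondria, and uncoupling protein 1 and the fatty acid oxidation enzymes reach them along these routes.

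The promoters printed below were picked as examples. RefSeq promoter windows (GRCm38.p6, 250 bases before to 50 after a start site) were matched for 33 of the 37 genes. The letters CCGGAAG, a core bound by ETS factors such as GABPA, were looked for on both strands, so CTTCCGG also counts. They occurred in 17 of the 36 windows of these genes (47.2%), against 16.1% of the windows of the genes tested and 8.86% of all 32851 windows. The windows of Hspd1 and Hspe1 share bases and both count, and some genes have more than 1 window. The median GC content of the windows was 59.8% for these genes and 60.3% for the genes tested. The consensus letters of NRF1 were in 11.1% of the windows of these genes and in 9.06% of those of the genes tested. CCAAT was in 30.6% and 37.4% of them, and GAANNTTC, a pair of heat shock units, in 8.33% and 5.79%. A match is a description of the letters only. Capitals mark these motifs in the bases just before the start site of Pmpca (chr2:26389228-26389347, plus strand), Pmpcb (chr5:21737040-21737159, plus strand), Tomm70a (chr16:57121594-57121713, plus strand) and Tomm22 (chr15:79670748-79670867, plus strand), all GRCm38.p6. Each of these stretches has at least 1 CCGGAAG on either strand, and in Tomm22 a pair of them overlaps on opposite strands. Timm23, with a fitted level below WT, and Tomm34, with one above WT, also hold these letters just before a start site. These stretches are not printed.
Pmpca: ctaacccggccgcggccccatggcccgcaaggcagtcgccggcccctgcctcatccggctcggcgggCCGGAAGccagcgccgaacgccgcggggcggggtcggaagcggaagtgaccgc
Pmpcb: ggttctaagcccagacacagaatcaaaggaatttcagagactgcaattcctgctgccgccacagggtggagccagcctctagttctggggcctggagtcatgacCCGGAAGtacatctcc
Tomm70a: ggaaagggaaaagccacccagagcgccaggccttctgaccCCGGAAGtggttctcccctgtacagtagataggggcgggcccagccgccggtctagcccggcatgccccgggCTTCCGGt
Tomm22: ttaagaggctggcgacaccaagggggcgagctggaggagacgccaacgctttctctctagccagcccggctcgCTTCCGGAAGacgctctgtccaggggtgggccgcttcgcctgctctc

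Hspd1 and Hspe1, which encode Hsp60 and Hsp10, lie head to head, and their start sites in the same table are 216 bases apart. The 215 bases between them (chr1:55087933-55088147, GRCm38.p6, plus strand, read towards Hspe1) are shown because both genes start from this stretch. The capitals mark GAANNTTC overlapping with CCGGAAG on both strands.
Hspd1 to Hspe1: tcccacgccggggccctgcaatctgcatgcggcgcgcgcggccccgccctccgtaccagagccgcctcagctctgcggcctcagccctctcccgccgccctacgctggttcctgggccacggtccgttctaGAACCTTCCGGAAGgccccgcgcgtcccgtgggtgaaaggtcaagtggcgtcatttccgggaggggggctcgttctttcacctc

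The library totals were 33672272 to 43253559 counts for WT and 35734373 to 40927141 for KO. Fermt2, the targeted gene, was measured at 239, 235, 244 and 201 CPM in WT replicates 1 to 4 and at 192, 132, 173 and 174 CPM in KO replicates 1 to 4. CPM is the count as a share of the library size, here scaled by TMM, the trimmed mean of M values. By TMM the groups did not overlap, and the log2 fold change was -0.45 ± 0.14 (SE, edgeR adjusted p = 0.134). Without the TMM factors KO replicates 1 and 4 lie inside the WT range of Fermt2. Unless said otherwise, overlap of groups is judged below on TMM-scaled CPM. Whole tissue also holds cells in which the gene was not deleted. Ucp1, the defining gene of brown adipocytes, was read in every library, and none of the 9 brown adipocyte or 7 adipocyte markers was at 0 throughout. In WT replicate 3 the 10 skeletal muscle markers summed to 39831 CPM, against at most 257 CPM in the other libraries. In KO replicate 2 the 10 interferon response markers summed to 4485 CPM, against at most 414 CPM elsewhere. Results are therefore also given for the 6 libraries without this pair, called the 6-library comparison.

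By TMM most import genes had a slightly lower level in KO tissue than in WT, and none passed the test over all genes. Of the 37 genes, 34 passed the filter on low counts, and 28 of these 34 had a fitted fold change below 0. The median of the 34 was -0.23 on the log2 scale. Over all 13901 genes tested 49.5% lay lower and the median was 0.00. With Benjamini-Hochberg adjustment over all genes and a threshold of 0.05, the quasi-likelihood test of edgeR called 0 of the 34, against 0% of all genes. Unadjusted p-values under 0.05 were found for 14 of the 34 (13 lower, 1 higher), or 41.2%, against 21.5% of all genes (11.1% lower, 10.4% higher). Scaling sets the sign of the median: by total library size the median of all genes moved to 0.26 and that of the import genes to 0.018, with 15 of 34 below 0. Relative to the median of all genes the import genes stood at -0.24 by TMM and at -0.25 by total library size. In whole tissue, fewer brown adipocytes and less RNA per brown adipocyte cannot be told apart.

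**Figure D1:**
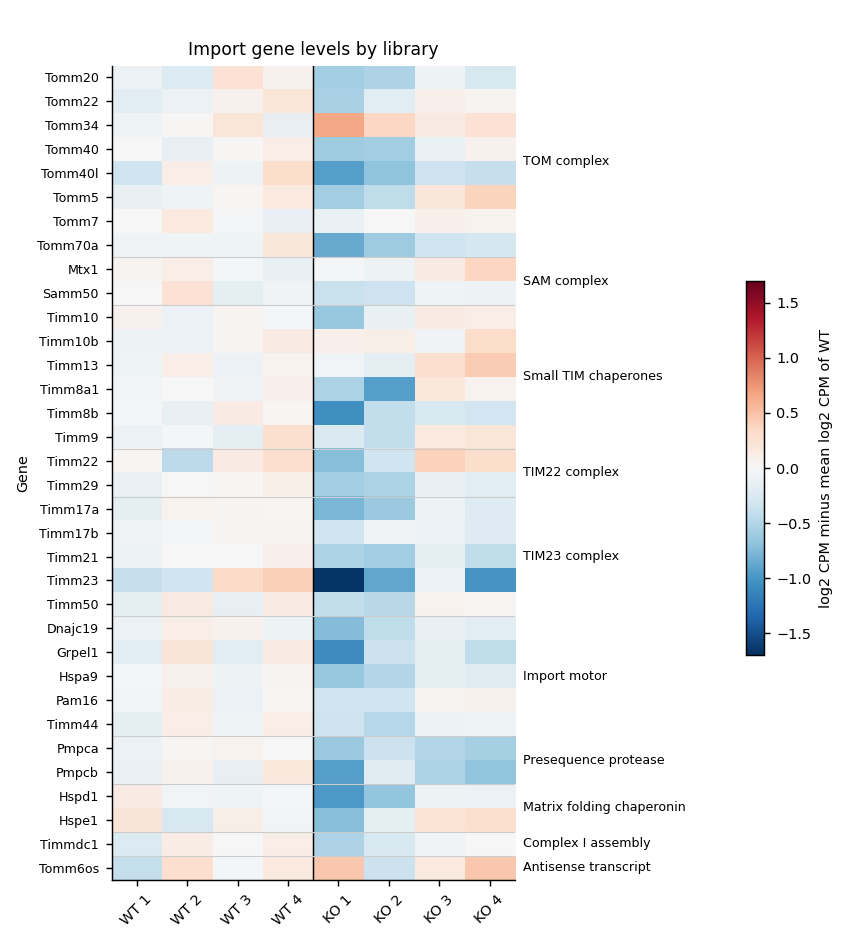
Level of the 34 import genes that passed the filter in each library, as log2 CPM minus the mean log2 CPM of the 4 WT libraries (colour), with genes in rows grouped by role and libraries in columns. KO replicates 1 and 2 lie below the WT mean in 31 and 32 of the 34 genes, and KO replicates 3 and 4 in 20 and 18, with Pmpca and Pmpcb among them.

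The KO libraries were not alike. The median deviation of the 34 genes from the WT mean was -0.58, -0.40, -0.08 and -0.04 on the log2 scale in KO replicates 1 to 4. In WT replicates 1 to 4 it was -0.09, 0.01, 0.00 and 0.09. KO replicates 3 and 4 thus lay inside the WT range and KO replicates 1 and 2 far below it. The summed level of the brown adipocyte markers was also lowest in KO replicates 1 and 2, at 6769, 5661, 9085 and 8844 CPM in KO replicates 1 to 4 and 9159 to 11618 CPM in WT. The 7 adipocyte markers summed to 19070, 17990, 23801 and 22363 CPM in KO and to between 22741 and 26489 CPM in WT. The 9 endothelial markers, of which 1 had a fitted level below WT, summed to 1324 to 1797 CPM in WT and 1621 to 2778 CPM in KO. Macrophage (8 of 8), T and NK cell (8 of 8) and B and plasma cell (5 of 5) markers all had a fitted level above WT, with medians of 0.42, 2.04 and 0.66 on the log2 scale. The T and NK cell sum was 17.7, 190, 34.2 and 19.5 CPM in KO replicates 1 to 4 and 2.96 to 30.5 CPM in WT. The macrophage sum was 212, 569, 311 and 246 CPM in KO replicates 1 to 4 and 174 to 267 CPM in WT. For B and plasma cells it was 9.75, 24.4, 13.2 and 15.0 CPM in KO and 2.85 to 12.0 CPM in WT. The sums of macrophages, T and NK cells and B and plasma cells were all highest in KO replicate 2, and each overlapped between groups. The part of these cell types in the result was not tested. As a share of all counts, without TMM, the 37 genes took 0.407% ± 0.0251 in WT and 0.394% ± 0.0571 in KO (SD, n = 4), and these groups overlapped.

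Of the 34 genes, Pmpca had the smallest p. This substrate-binding subunit of MPP was at 70.3, 76.8, 78.3 and 75.1 CPM in WT replicates 1 to 4 and at 48.6, 58.4, 53.2 and 50.9 CPM in KO replicates 1 to 4. No KO library reached the WT range, KO replicates 3 and 4 included. Its log2 fold change was -0.51 ± 0.10 (SE), with an edgeR adjusted p of 0.0915. Pmpcb, the catalytic subunit, was at 150, 169, 147 and 183 CPM in WT and at 84.3, 140, 111 and 101 CPM in KO. The groups again did not overlap, with KO replicate 2 close to the lowest WT library, and the log2 fold change was -0.57 ± 0.16 (edgeR adjusted p = 0.126).

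Both subunits fell in the 6-library comparison and were the members called there, 2 of 34 against 3.32% of all genes (1.5% lower, 1.82% higher). The 6-library log2 fold change was -0.54 for Pmpca and -0.76 for Pmpcb, with edgeR adjusted p of 0.0363 and 0.0339. Leaving out KO replicate 2 alone was enough to call them, with adjusted p of 0.0350 and 0.0382. Limma-voom with sample quality weights also called this pair (adjusted p = 0.0227 for each), against 6.55% of all genes (3.62% lower, 2.94% higher). DESeq2 called 5 of the 34, all lower, against 8.4% of all genes (4.51% lower, 3.88% higher): Pmpca (adjusted p = 0.000487), Pmpcb (0.0258), Tomm70a (0.027), Timm21 (0.0297) and Tomm40l (0.0450). By total library size Pmpca lay at -0.25 and Pmpcb at -0.32, still below WT, while the median gene had moved to 0.26.

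**Figure D2:**
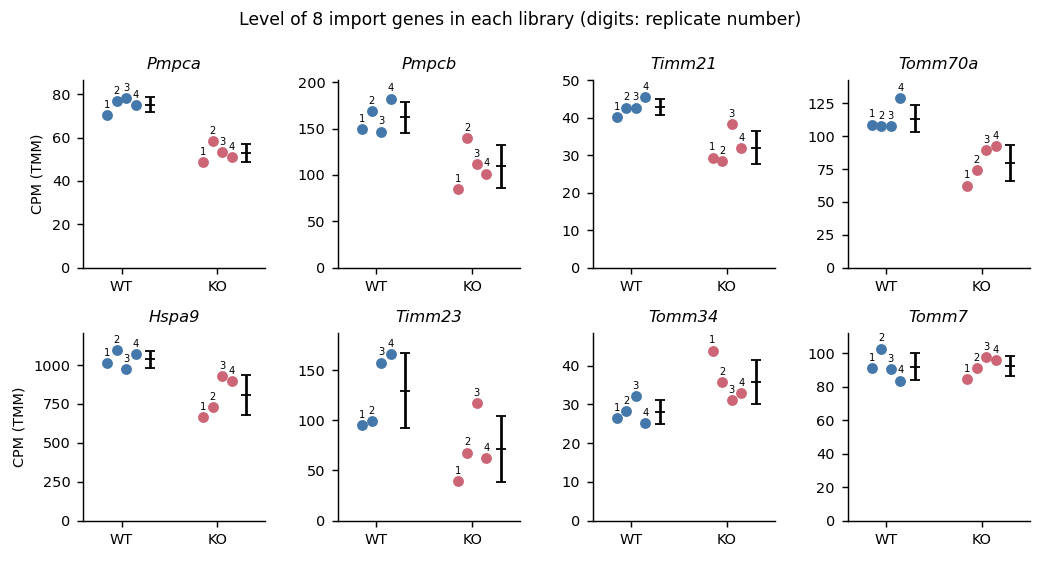
Level of 8 import genes in CPM with TMM scaling (vertical axes from 0) in the 4 WT and 4 KO libraries, with digits for replicate numbers and bars for the mean ± SD of each group. Pmpca, Pmpcb, Timm21, Tomm70a and Hspa9 do not overlap between groups, and Timm23, Tomm34 and Tomm7 do.

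Of the 8 tested genes named for the outer membrane gate, 6 had a fitted level below WT by TMM and 4 by total library size. Tomm70a, a receptor for carrier precursors and chaperones, was at 109, 108, 108 and 129 CPM in WT and at 62.3, 74.4, 89.6 and 92.4 CPM in KO. No KO library reached the lowest WT library, and the log2 fold change was -0.51 ± 0.14 (edgeR adjusted p = 0.126). Tomm20, the presequence receptor, was at 113, 103, 143 and 127 CPM in WT and at 81.1, 83.7, 114 and 99.9 CPM in KO, with overlap and a log2 fold change of -0.36 ± 0.15 (adjusted p = 0.211). Tomm22, the central receptor, was at 70.9, 76.0, 85.6 and 93.5 CPM in WT and at 55.4, 71.6, 86.1 and 83.5 CPM in KO, with KO replicate 1 below and the other KO libraries inside the WT range (-0.14 ± 0.16, adjusted p = 0.629). Tomm40, the channel itself, was at 87.0, 78.8, 88.4 and 94.1 CPM in WT and at 57.4, 57.9, 80.3 and 91.8 CPM in KO, so KO replicates 1 and 2 were low and the other two were not (-0.28 ± 0.17, adjusted p = 0.339). Tomm40l, its close relative, was at 16.5, 22.5, 19.6 and 25.7 CPM in WT and at 10.8, 12.9, 16.2 and 15.9 CPM in KO. Here and below a difference is a log2 fold change ± SE. The groups came close without overlapping, and the difference was -0.59 ± 0.18 (adjusted p = 0.139). In GENCODE M21 3304 of its 5135 exonic bases also lie in exons of Nr1i3 on the opposite strand, and the sources used here do not say whether counting used strand.

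Small subunits stabilise the gate. Of these, Tomm7 was at 91.1, 103, 90.6 and 83.7 CPM in WT and at 84.8, 91.4, 97.8 and 95.8 CPM in KO, a difference of 0.01 ± 0.10 on the log2 scale (adjusted p = 0.979). Tomm5 differed by -0.06 ± 0.21 (adjusted p = 0.883). Tomm34, despite its name a cytosolic co-chaperone of precursors, was at 26.5, 28.2, 32.1 and 25.2 CPM in WT and at 43.9, 35.7, 31.0 and 33.0 CPM in KO, with WT replicate 3 above KO replicate 3. Its log2 fold change was 0.36 ± 0.14 (edgeR adjusted p = 0.189). When counts were scaled by total library size alone it was the member called (0.63, edgeR adjusted p = 0.0460). That scaling called 882 of 13901 genes (858 higher, 24 lower) and put the median of all genes at 0.26. Tomm6 had between 0 and 12 counts in a library and could not be compared. In GENCODE M21 859 of its 1131 exonic bases are shared with Gm21981 on the same strand. Tomm6os, an antisense transcript caught by the name rule, had 39 to 92 counts, and Tomm20l at most 3.

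In the SAM complex, Samm50, the barrel insertase, was at 346, 412, 311 and 334 CPM in WT and at 268, 273, 332 and 327 CPM in KO (log2 fold change -0.23 ± 0.13, edgeR adjusted p = 0.330), and its fold change by total library size was 0.03. Its partner Mtx1 differed by 0.11 ± 0.12 (adjusted p = 0.612).

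Of the 6 tested small TIM chaperones of the intermembrane space, 4 had a fitted level below WT by TMM and 1 by total library size. These proteins work as rings, Timm9 with Timm10 and Timm8 with Timm13. Timm8b was at 65.2, 60.6, 72.7 and 66.9 CPM in WT and at 32.2, 49.4, 55.1 and 52.9 CPM in KO, without overlap (log2 fold change -0.48 ± 0.17, edgeR adjusted p = 0.161). Timm13 was at 137, 156, 135 and 151 CPM in WT and at 140, 129, 177 and 196 CPM in KO, with KO replicates 3 and 4 the highest of all 8 libraries. Its log2 fold change was 0.14 ± 0.15 (adjusted p = 0.581). Timm8a1, the relative of Timm8b, was at 20.0, 20.8, 19.8 and 22 CPM in WT and at 14.3, 10.7, 23.5 and 21.5 CPM in KO, where KO replicates 1 and 2 were again the low ones. Timm9 and Timm10 differed by -0.06 ± 0.17 and -0.10 ± 0.16, and Timm10b by 0.11 ± 0.15. Timm8a2 had at most 4 counts in any library. In the TIM22 complex Timm29, a subunit in contact with TOM, was at 60.7, 65.8, 67.0 and 70.4 CPM in WT and at 44.1, 45.3, 60.5 and 58.0 CPM in KO. The groups touched without overlapping, and the difference was -0.34 ± 0.13 (adjusted p = 0.186). Timm22, the insertase channel, differed by -0.05 ± 0.26 and ranged from 16.5 to 36.0 CPM in KO and from 20.1 to 33.3 CPM in WT.

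All 5 genes of the TIM23 complex had a fitted level below WT by TMM, and 3 of them, Timm17a, Timm21 and Timm23, also by total library size. Timm21, which links the complex to TOM and to respiratory chain assembly, was at 40.2, 42.8, 42.7 and 45.5 CPM in WT and at 29.4, 28.4, 38.3 and 31.8 CPM in KO. The groups did not overlap and the log2 fold change was -0.42 ± 0.12 (edgeR adjusted p = 0.122). Timm17a, a channel subunit, was at 138, 160, 159 and 157 CPM in WT and at 89.8, 98.9, 145 and 132 CPM in KO (-0.40 ± 0.16, adjusted p = 0.20). Its paralog Timm17b was at 35, 35.7, 37.8 and 37.6 CPM in WT and at 28.8, 34.9, 34.0 and 31.4 CPM in KO (-0.18 ± 0.10, adjusted p = 0.313), with KO replicate 2 just under the lowest WT library. Timm23, the subunit that names the complex, had the lowest fold change of the 34 and the largest SE. It was at 95.6, 99.2, 158 and 166 CPM in WT and at 39.4, 67.9, 118 and 62.4 CPM in KO. KO replicate 3 lay above WT replicates 1 and 2, and the log2 fold change of -0.85 ± 0.33 had an adjusted p of 0.197. Timm50, the presequence receptor of the inner membrane, differed by -0.19 ± 0.16.

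The motor genes lay on 1 side by TMM, 5 of 5 lower with a median of -0.35, and 3 of 5 lower by total library size. Hspa9, the mitochondrial Hsp70 that drives the motor, was at 1013, 1095, 972 and 1071 CPM in WT and at 664, 731, 927 and 898 CPM in KO. The groups did not overlap, though KO replicate 3 was close to WT replicate 3, and the log2 fold change was -0.37 ± 0.14 (edgeR adjusted p = 0.184). Grpel1, its nucleotide exchange factor, was at 148, 197, 148 and 188 CPM in WT and at 80.9, 131, 151 and 126 CPM in KO (-0.48 ± 0.19, adjusted p = 0.201). Dnajc19, a J-protein of the motor, differed by -0.35 ± 0.14 (adjusted p = 0.201). Pam16, the J-like partner that holds it, and Timm44, which tethers Hsp70 to the channel, differed by -0.13 ± 0.13 and -0.24 ± 0.13.

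Matrix folding by the chaperonin was represented by Hspd1 and Hspe1. Hspd1 was at 638, 559, 551 and 569 CPM in WT and at 293, 364, 545 and 540 CPM in KO. KO replicates 3 and 4 were just under the lowest WT library and KO replicates 1 and 2 far under it, and the log2 fold change was -0.41 ± 0.20 (edgeR adjusted p = 0.260). Hspe1 was at 233, 167, 215 and 195 CPM in WT and at 122, 182, 236 and 242 CPM in KO, where KO replicates 3 and 4 were the highest of all libraries (-0.05 ± 0.21, adjusted p = 0.904). RefSeq names 23 pseudogenes of Hspd1 and 7 of Hspe1, and for each gene 2 of these are in the count table. They held at most 264 counts in a library for Hspd1, which itself had at least 12719, and at most 4 for Hspe1, which had at least 5282. How reads shared with other copies were assigned is not known. Timmdc1, a complex I assembly factor that shares only the name, differed by -0.21 ± 0.14.

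**Figure D3:**
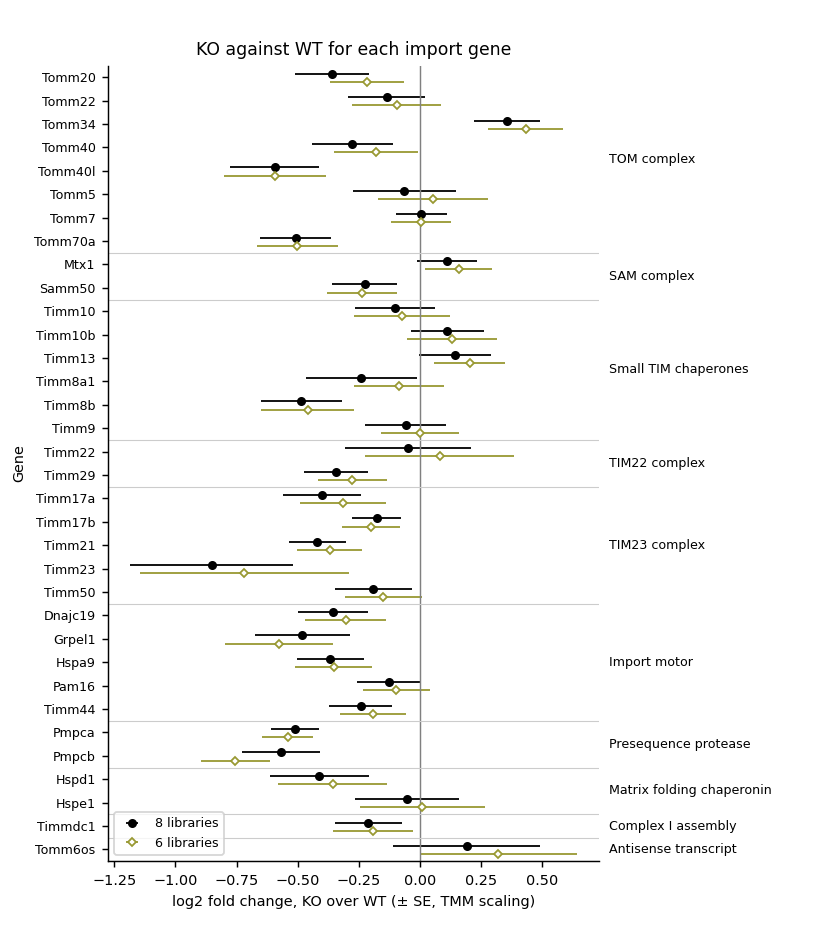
Log2 fold change of KO over WT with TMM scaling (horizontal axis, bars ± SE) for the 34 import genes in role order, from all 8 libraries (black circles) and from the 6-library comparison (open diamonds). Most points lie left of 0, and Tomm34 lies on the right. Pmpca, Pmpcb, Timm21, Tomm70a and Tomm40l are among the genes whose bars stay away from 0 in both.

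The highest KO library was below the lowest WT library, by TMM-scaled CPM, for 11 of the 34 genes, against 7.56% of all genes tested. These were Pmpca, Pmpcb, Tomm70a, Tomm40l, Timm8b, Timm29, Timm21, Timm17b, Dnajc19, Hspa9 and Hspd1. The reverse, with every KO library above WT, held for 0 of the 34, against 5.8% of all genes. Both counts depend on the scaling. The TMM factors were 0.88 to 0.95 in WT and 1.05 to 1.15 in KO, which lowers every KO level relative to WT. Without these factors the groups of most of these genes overlap, Pmpcb and Hspa9 among them. Tomm34 and Mtx1 are then among the genes with every KO library above WT.

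Ratios of 2 genes within a library do not depend on scaling, and 7 were tested by a two-sided exact permutation test whose smallest p is 0.0286. Hspd1 over Hspe1 was 2.73, 3.34, 2.57 and 2.91 in WT and 2.41, 2.0, 2.31 and 2.23 in KO. All 4 KO ratios lay below all WT ratios, a log2 difference of -0.36 with an exact permutation p of 0.0286 and an adjusted p of 0.20 over the 7 ratios, so it missed the threshold. Leaving out each library in turn, the difference stayed between -0.42 and -0.29. For Pmpca over Pmpcb the ratio was 0.467 ± 0.0508 in WT and 0.493 ± 0.0659 in KO (SD, n = 4, exact permutation p = 0.571), a log2 difference of 0.08. That value depended on single libraries: it was 0.22 in the 6-library comparison, where all 3 KO ratios lay above all 3 WT ratios and the smallest exact p is 0.1. Dropping KO replicate 2 alone gave 0.15, dropping WT replicate 3 gave 0.14 and dropping KO replicate 1 gave 0.00.

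Paralog ratios also stayed short of the threshold. Tomm40 over Tomm40l was 4.24 ± 0.822 in WT and 5.13 ± 0.548 in KO (SD, n = 4, exact permutation p = 0.143, adjusted 0.25). Grpel2, the paralog of Grpel1, was at 27.6, 32.0, 26.2 and 35.2 CPM in WT and at 23.7, 23.6, 29.2 and 25.9 CPM in KO. Grpel1 over Grpel2 was 5.64 ± 0.383 in WT and 4.74 ± 0.931 in KO (exact permutation p = 0.0857, adjusted 0.25), with 3 of 4 KO libraries below all WT libraries. Without KO replicate 1 that log2 difference went from -0.27 to -0.12. Timm17a over Timm17b was 3.95, 4.49, 4.21 and 4.17 in WT and 3.11, 2.83, 4.25 and 4.21 in KO (exact permutation p = 0.314, adjusted 0.44). KO replicates 1 and 2 were low and the other two were within the WT range. Tomm20 over Tomm22 differed by -0.21 on the log2 scale (exact permutation p = 0.114, adjusted 0.25), and Timm8a1 over Timm8b by 0.21 (exact permutation p = 0.486, adjusted 0.567), with 3 of 4 KO libraries above WT and KO replicate 2 below it.

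**Figure D4:**
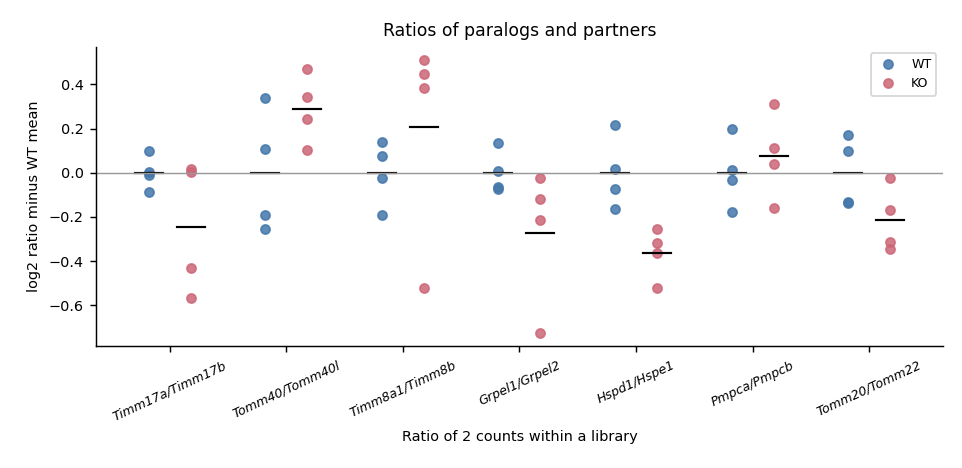
Log2 ratio of 2 counts within each library, minus the WT mean of that ratio (vertical axis), for the 7 paralog and partner pairs in WT (blue) and KO (red), with a bar at each group mean. Only for Hspd1 over Hspe1 do all 4 KO points lie below all 4 WT points.

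Levels of different genes were compared per kilobase of exon, with exon lengths from GENCODE M21, which count all isoforms and so lower the value of genes with long alternative ends. On this scale Hspa9 was highest in WT, at 241 CPM per kilobase, then Hspd1 at 219, Hspe1 at 137, Timm8b at 128 and Timm13 at 106. The receptors Tomm20 and Tomm22 were at 24.8 and 49.4 CPM per kilobase, Tomm70a at 11.6, Pmpcb at 31.5 and Pmpca at 17.5. Across the 34 genes the Spearman correlation was -0.42 between exon length and log2 fold change (n = 34 genes that share the same 8 libraries), against 0.06 over 13868 genes tested. The 10 genes with under 2000 exonic bases had a median of -0.12 and the 24 others -0.31, while all genes tested had -0.04 and 0.01 in these length classes. The median log2 fold change was -0.34 in the 15 tested genes with CCGGAAG in their window and -0.19 in the 15 with a window but without these letters. The count went the other way, with 12 of 15 and 13 of 15 below 0, and the genes with the letters ran from -0.85 to 0.36.

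Other genes of protein import, kept as a list of 17, had 16 fitted levels below WT with a median of -0.24, and edgeR called 0 of 17 with 8 or with 6 libraries. DESeq2 called 2 of the 17, Mtx2 and Pitrm1, both lower, against 8.4% of all genes (4.51% lower, 3.88% higher). Mtx2, the partner of Mtx1 in the SAM complex, had a mean level of 97.1 ± 9.59 CPM (SD, n = 4) in WT against 56.8 ± 13.7 CPM in KO, and differed by -0.77 ± 0.18 (edgeR adjusted p = 0.103, and 0.0648 with 6 libraries). Pitrm1, the peptidase that degrades presequences once they are cut off, differed by -0.44 ± 0.11 (adjusted p = 0.103, and 0.0510 with 6 libraries). Mipep, which trims some proteins after MPP, differed by -0.32 ± 0.11 (adjusted p = 0.173). In Mtx2, Pitrm1 and Mipep no KO library overlapped with WT. By total library size the list median was 0.02, with 6 of 17 below 0.

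The MICOS complex, which shapes the cristae and contacts SAM, lay lower in 6 of 6 genes by TMM, with a median of -0.48, and in 4 of 6 by total library size. Apoo, a MICOS subunit, fell in the 6-library comparison (-0.73, edgeR adjusted p = 0.0378, and 0.0915 with all 8 libraries). Immt, the core subunit, stood at -0.53 ± 0.12 (adjusted p = 0.0981, or 0.0525 without WT replicate 3 and KO replicate 2), and Apool at -0.51 ± 0.12. DESeq2 called 4 of the 6 MICOS genes, all lower, against 8.4% of all genes (4.51% lower, 3.88% higher). Matrix chaperones and proteases lay lower in 14 of 14 cases by TMM (median -0.32) and in 11 of 14 by total library size. Trap1, the mitochondrial Hsp90, was the 1 of 14 called with 6 libraries (-0.64, edgeR adjusted p = 0.0417), against 3.32% of all genes. Its groups overlapped with all 8 libraries (-0.44 ± 0.16, adjusted p = 0.177). Clpx, the unfoldase of the Clp protease, differed by -0.60 ± 0.15 (edgeR adjusted p = 0.104). It was among the 3 of these 14 that DESeq2 called, all lower. Of 12 regulators of mitochondrial stress and biogenesis 7 lay lower by TMM (median -0.16) and 5 by total library size, and edgeR called 0 with 8 or with 6 libraries. Tfam, which packages and transcribes mitochondrial DNA, stood at -0.40 ± 0.13 (edgeR adjusted p = 0.152). The PGC-1 coactivators lay on opposite sides, Ppargc1a at -0.78 ± 0.29 (edgeR adjusted p = 0.187) and Ppargc1b at 0.81 ± 0.26 (edgeR adjusted p = 0.156). DESeq2 called 1 of the 12, Ppargc1b (adjusted p = 0.0355), against 8.4% of all genes (4.51% lower, 3.88% higher).

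Other mitochondrial lists are given as values, with no test of their difference from the import genes. By TMM the median was -0.16 for 86 respiratory chain genes (69 lower) and -0.22 for 78 mitochondrial ribosomal genes (74 lower), against -0.49 for 18 tricarboxylic acid cycle genes (18 lower). By total library size 35 of the 86, 27 of the 78 and 18 of the 18 lay lower. DESeq2 called 11 of the 86, 6 of the 78 and 13 of the 18, all lower, against 8.4% of all genes (4.51% lower). With 6 libraries edgeR called 6 of the 18 cycle genes, all lower, against 3.32% of all genes (1.5% lower, 1.82% higher). Among them were Idh3a (-0.79, edgeR adjusted p = 0.0427) and Idh3b (-0.78, edgeR adjusted p = 0.0337), both subunits of isocitrate dehydrogenase. In the 6-library comparison 25 of the 34 import genes lay lower, with a median of -0.19.

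**Figure D5:**
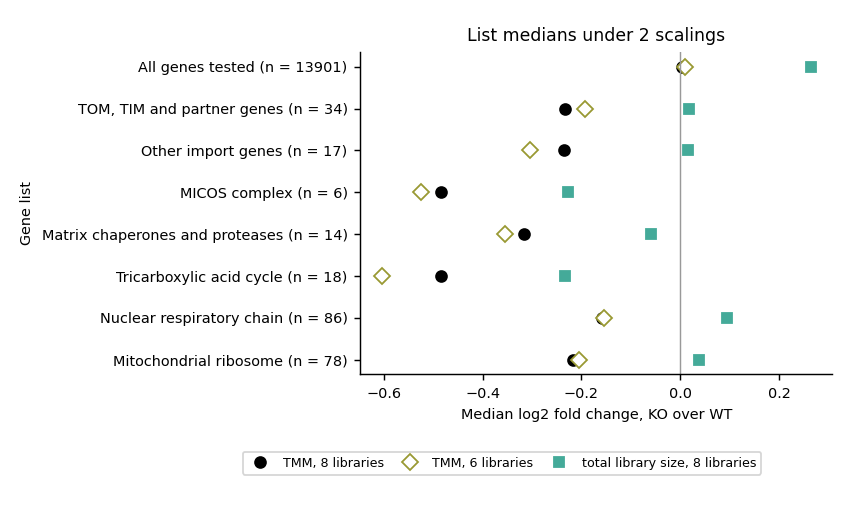
Median log2 fold change of KO over WT (horizontal axis) for all genes tested and for 7 gene lists, with TMM scaling of 8 libraries (circles) or 6 libraries (diamonds) and with total library size only (squares). The squares sit to the right of the circles in every list, and all genes go from 0.00 to 0.26.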

How the data were processed

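RNA was measured in adipose tissue from cold-exposed mice, 4 WT and 4 KO libraries. The authors deposited raw counts per gene and library, as whole numbers, on build GRCm39 per the submitters' processing notes. Per the labels' protocols, mRNA was captured by its poly(A) tail and dUTP was used in cDNA synthesis. The sources used here name no aligner, counter or annotation. Gene IDs were paired with GENCODE M21 symbols (18321 of 18395). Promoter coordinates are those of the RefSeq table on GRCm38.p6 and were not used with the counts.

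Genes were filtered with filterByExpr (13901 kept), scaled by TMM and tested with edgeR 4.0.16 in R 4.3.3 (robust quasi-likelihood F test, group only, Benjamini-Hochberg, threshold 0.05). The SE comes from the fold change and F. Ratios had 0.5 added to each count. Alternatives were DESeq2 1.42.0, limma 3.58.1, other scalings and filters, a replicate block and left-out libraries.

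The members, lists and ratios were chosen with earlier results of these data known. By rule, values in every library are given for the most abundant and the smallest-p member of each role, called members and genes in ratios, and up to 3 smallest-p genes are named per list. Timm23, Tomm34, Tomm7 and Trap1 were added after their values were seen. For 1 list, a gene that the rule would name is not reported here.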

Additional observations from a re-analysis of the deposited data

Results flagged for a closer look

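In the groups of 4 libraries, 3 values lay far from the other 3 by Dixon's test at the 95% level, among 84 groups looked at. Chance gives about 1 in 20. Tomm70a in WT replicate 4 was at 129 CPM, against 108 to 109 CPM in the other WT libraries. Timm17a in WT replicate 1 was at 138 CPM, against 157 to 160 CPM. The ratio of Timm8a1 to Timm8b in KO replicate 2 was 0.218, against 0.407 to 0.444 in the other KO libraries. Without KO replicate 2 the log2 difference of that ratio between groups went from 0.21 to 0.45.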

How the results depend on the processing

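With all 8 libraries edgeR called 0 of 13901 genes and 0 import genes. Unadjusted p-values under 0.05 were found for 2993 genes. Scaling by total library size called 882 genes (858 higher, 24 lower) and 1 import gene, put the import median at 0.018 and left 15 of 34 lower. DESeq2 called 1167 genes and 5 import genes, limma-voom with sample quality weights 911 and 2, the 6-library comparison 461 and 2, and an adjusted p under 0.10 gave 249 and 1. Without a filter on low counts 1 gene was called. Leaving out each library in turn gave 0 to 373 genes and 0 to 2 import genes, with 373 and 2 without KO replicate 2, 3 genes without WT replicate 4 and 1 without WT replicate 1. The import median stayed between -0.30 and -0.17 in those fits, with -0.17 and 23 of 34 lower without KO replicate 1. DESeq2 size factors, upper-quartile scaling, the stricter filter, limma-voom and a fit without robust dispersion called 0 genes. With a replicate block edgeR called 0 genes, with 28 of 34 lower and a median of -0.24. Correlations of same-numbered libraries were -0.05, 0.04, -0.13 and 0.22, and 2 of 4 WT and 1 of 4 KO libraries correlated best with their own number, so the numbers were not taken as pairs. Signs of Hspe1, Timm9, Timm10, Timm22, Tomm5 and Tomm7 changed in 3 to 7 of 19 alternatives. Those of Pam16, Samm50, Timm17b, Timm44, Timm50, Timm8a1, Timmdc1 and Tomm22 changed in 1. With 3 against 4 libraries the smallest exact permutation p for a ratio is 0.0571, so those values show direction only.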
